A study of Homo sapiens with 4 samples.

Results

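The 40 genes described here carry out or regulate glycolysis, or belong to the transcriptional response to low oxygen that is driven by hypoxia-inducible factors (HIF). They were taken as a list of named genes: 4 carriers of glucose and lactate, 17 glycolytic enzymes counting lactate dehydrogenase, 4 regulatory kinases, 13 HIF targets outside glycolysis, and the 2 HIF alpha subunits. A probe was found through its RefSeq accession for 39 of the 40, with 48 probes in all, and 38 had a probe with a value on every array, out of 18755 such genes on the array. The exceptions were ALDOA, an aldolase for which no probe could be matched, and NDRG1, whose only probe carried an outlier mark on the MET siRNA array.

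Total RNA of Hs746T, an established gastric carcinoma line with MET amplification and a MET exon-skipping mutation per the study, was hybridised to 4 single-colour Agilent arrays, 1 for each condition. Cells had received DMSO (the vehicle), the MET kinase inhibitor PHA665752, a scrambled siRNA (sc siRNA) or 1 siRNA against MET (MET siRNA), and the siRNA-transfected cells were harvested after 48 h. All of them carried the same MET alterations and grew in serum-containing medium, and the inhibitor's dose and time on the array are not given in the sources used here. With 1 array per condition no test could be made and precision is limited by that number, so every difference below is between 2 arrays.

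A cell splits glucose into pyruvate through the glycolytic enzymes, and lactate dehydrogenase turns pyruvate into lactate, which monocarboxylate carriers export. When oxygen is low, the HIF alpha subunits HIF1A and EPAS1 (HIF-2 alpha) escape degradation. HIF then raises transcription of most of these enzymes together with genes for pH control, vessel growth and mitophagy. Growth factor receptors such as MET can raise the same genes at normal oxygen through PI3K, mTOR and MYC signalling.

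A signal is the processed intensity of a probe after background subtraction by the scanner software, and a log2 ratio is the difference of 2 such signals on the log2 scale after the 75th percentile of each array (signals from 831 to 990.1) had been subtracted. A bound is a ratio in which the dimmer array was not well above background. Between 61.1% and 68.2% of probes were well above background on an array, and spots marked as outliers made up 5.58% on the MET siRNA array against 1.69% to 2.21% on the others. Probes spotted 10 times gave a spot noise of 0.078 (SD of a log2 ratio), which leaves out differences between cultures. The MET signal was 221451 under DMSO, 100492 under PHA665752, 190010.0 under sc siRNA and 77854 under MET siRNA, or log2 ratios of -0.93 for the inhibitor and -1.33 for the siRNA. The epithelial markers EPCAM, KRT8, KRT18 and KRT19 were well above background on every array, whereas KRT20 was so on none and CDH1 on 3. The gastric markers MUC6, TFF1 and TFF2 were well above background on every array and GKN1 on none, with a summed signal for the list of only 254 to 309. Among blood and endothelial markers CD3E and HBB were well above background on no array and PTPRC had signals of 22.7 to 37.8, while PECAM1, an endothelial adhesion molecule, had 304 with PHA665752 against 1846 with DMSO. Of the 4 mesenchymal markers, FN1, CDH2 and ZEB1 were well above background on every array, with a summed signal of 6569 to 9236, and VIM carried outlier marks on both siRNA arrays. FN1 (fibronectin) had signals of 1061 under DMSO, 3564 under PHA665752, 770.3 under sc siRNA and 1107 under MET siRNA, and ZEB1, a repressor of epithelial genes, 2789.9, 1449, 2247 and 1609. The part of these marker differences in the results below was not tested.

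Most members were lower on the PHA665752 array than on the DMSO array, and the differences on the MET siRNA array were far smaller. With PHA665752, 28 of 38 members had a log2 ratio below 0 and the median was -0.39, against a median of 0.075 over all 14322 genes with a ratio. Of those 14322 genes, 6459 were below 0. ANGPTL4, BNIP3, CA9, HK2, PGAM1 and PGK1 were more than 2-fold lower, which is 6 of 38 members (15.8%) where 8.04% of all genes were, and 0 members were more than 2-fold higher where 13.1% of all genes were. At 1.5-fold, 13 members (34.2%) were lower and 2 (5.26%) were higher, beside 17.1% and 24.6% of all genes. Bright genes had fewer rises: of the 1876 genes with the highest signal, 66 were more than 2-fold higher and 166 more than 2-fold lower. At 1.5-fold, 183 of these bright genes were higher and 413 lower. The part of brightness in the members' counts was not tested. Scaling to the 50th percentile moved all genes by -0.25 and put 12 members past 2-fold lower and still 0 higher. In RNA from a whole culture, fewer cells that express a gene and less of its RNA per cell cannot be told apart. With MET siRNA the median over 38 members was -0.045, beside -0.017 over 13647 genes. No member was more than 2-fold lower (0 of 38, with 0.696% of all genes) and 1, CA12, was higher by a bound (2.04% of all genes). At 1.5-fold, ANGPTL4 was the single member lower and CA12 the single member higher, where 2.92% and 5.38% of all genes were.

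The control arrays gave the size of difference seen without either treatment of MET. The sc siRNA cells were transfected and the DMSO cells received vehicle, so this difference includes any response to transfection. With sc siRNA over DMSO, 0 of 37 members were past 2-fold in either direction, where 2.89% of all genes were higher and 1.16% lower. At 1.5-fold 0 members were higher and 1, PFKL, was lower, beside 6.94% and 4.45% of all genes. The members' log2 ratios between the controls lay between -0.61 for PFKL and 0.53 for ANGPTL4. Of the 38 ratios with MET siRNA, ANGPTL4 lay below this range and CA12 above it. With PHA665752, 13 members lay below it and 3 above, namely SLC2A3, KDM3A and the bound of CA12. All genes were not counted against this range. At the nearby limit of 1.5-fold, 17.1% of all genes were lower and 24.6% higher with PHA665752. With MET siRNA 2.92% were lower and 5.38% higher. The range is that of 37 members, without CA12, and it shares a control array with each treatment pair.

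**Figure D1:**
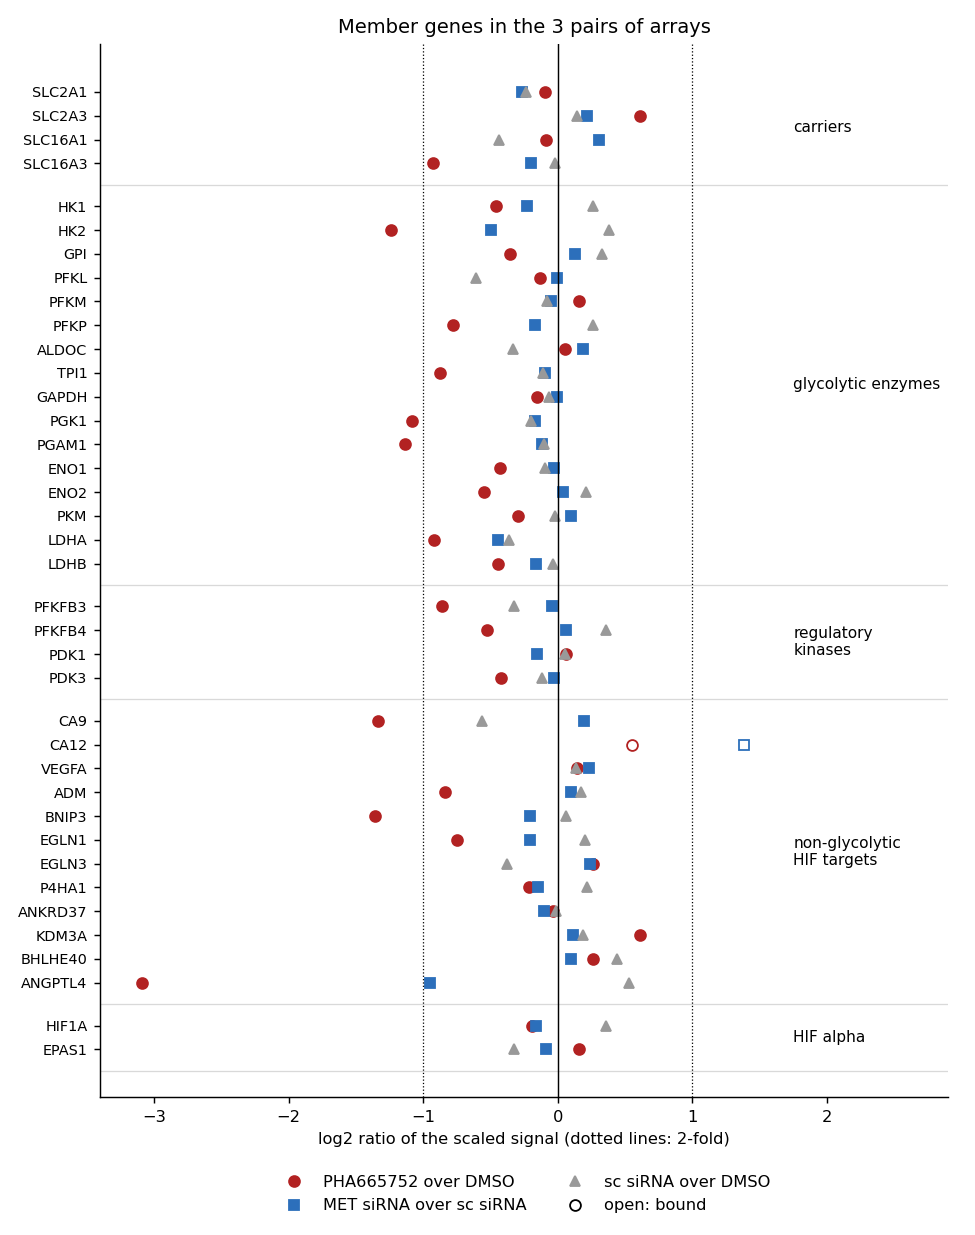
Log2 ratio of the scaled signal (horizontal axis) of each of the 38 members with a representative probe, grouped by role, for the 3 pairs of arrays; open symbols are bounds and dotted lines mark 2-fold. The PHA665752 circles lie left of 0 for 28 members, down to -3.09 for ANGPTL4, while most MET siRNA squares lie within the range of the control triangles.

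The carriers did not move as a unit. SLC2A1 (GLUT1), the main glucose carrier of many tumour cells, had signals of 19915 under DMSO, 16080.4 under PHA665752, 14205 under sc siRNA and 12222 under MET siRNA, and its log2 ratios were -0.094 with the inhibitor and -0.26 with the siRNA. SLC2A3 (GLUT3), a glucose carrier of high affinity, stood at 349.5, 460.0, 324 and 389.8 in the same order, highest with PHA665752, with a log2 ratio of 0.61. Its second probe gave 0.47. The 2 lactate carriers differed too. SLC16A3 (MCT4), the exporter typical of glycolytic cells, had 96635 with DMSO and 43768 with PHA665752 (1.90-fold lower), beside 79905 with sc siRNA and 72048 with MET siRNA, so the PHA665752 array was the lowest by far. SLC16A1 (MCT1) had log2 ratios of -0.084 and 0.31, within its difference of -0.44 between the controls.

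Of the 16 glycolytic enzymes with a ratio, 14 were lower with PHA665752, with a median log2 ratio of -0.45 and a range from -1.24 for HK2 to 0.16 for PFKM. HK2, PGAM1 and PGK1 were past 2-fold lower and 6 of the 16 past 1.5-fold lower, where 8.04% and 17.1% of all genes were. The enzymes' representative probes were bright: 13 of 16 lay among the 1876 genes with the highest signal out of 18755. Over those 1876 the median log2 ratio with PHA665752 was -0.11 and 1096 were below 0, so bright probes leaned downward on this array. Of the 1876, 166 were past 2-fold lower and 413 past 1.5-fold lower. The part of that lean in the enzymes' ratios was not tested.

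Hexokinases trap glucose in the cell as the first step. HK2, the inducible form, had signals of 11908 under DMSO, 4341 under PHA665752, 13039 under sc siRNA and 9569 under MET siRNA (probe A_32_P175739). It was 2.36-fold lower with the inhibitor and 1.41-fold lower with the siRNA, and between the controls it differed by 0.38 on the log2 scale, upward with sc siRNA. Its second, dimmer probe was not well above background with PHA665752 and was at least 2.73-fold lower there, and it had a log2 ratio of -0.71 with MET siRNA. HK1, the housekeeping form, had log2 ratios of -0.46 and -0.23, so that HK2 minus HK1 was -0.79 with PHA665752 and -0.26 with the siRNA on the log2 scale.

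The next steps divided by isozyme. GPI, the isomerase that makes fructose 6-phosphate, had log2 ratios of -0.36 and 0.13. Among the phosphofructokinases, which commit the sugar to glycolysis, the platelet form PFKP went from 32364 to 16278 with PHA665752, a log2 ratio of -0.78, and its second probe gave -0.82. The liver form PFKL had -0.13 and the muscle form PFKM 0.16, so only the platelet form of the 3 was past 1.5-fold. With MET siRNA these 3 lay between -0.17 and -0.0048. PFKL differed more between the controls (-0.61) than with either treatment. ALDOC, an aldolase of brain that HIF also raises, had log2 ratios of 0.054 and 0.19.

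The later steps of the pathway held PGK1 and PGAM1, which with HK2 were the enzymes past 2-fold. TPI1, which interconverts the triose phosphates, had signals of 125757 under DMSO, 59058 under PHA665752, 97767 under sc siRNA and 94349.7 under MET siRNA. PGK1, which makes the first ATP of the pathway, had 127197, 51842, 92816 and 85477 in the same order (probe A_23_P125829, spotted 10 times, SD between spots 0.017 to 0.036 on the log2 scale). PGAM1, which moves the phosphate of 3-phosphoglycerate, had 49419, 19446, 38686 and 36817 (probe A_32_P45738). In each of these 3 the PHA665752 array was the lowest and the MET siRNA array lay just under its control: the inhibitor's folds were 1.84 for TPI1, 2.12 for PGK1 and 2.19 for PGAM1, and the siRNA's 1.07, 1.12 and 1.09. The second PGAM1 probe gave log2 ratios of -1.14 and -0.34, close to the first with the inhibitor but lower with the siRNA. GAPDH, often used as a reference gene, stood between TPI1 and PGK1 in the pathway and moved little, with log2 ratios of -0.15 for the inhibitor and -0.0078 for the siRNA (spotted 10 times, SD between spots 0.034 to 0.067).

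Enolase and pyruvate kinase showed smaller differences. ENO1 had log2 ratios of -0.43 with the inhibitor and -0.026 with the siRNA, and ENO2, the neuronal form, -0.55 and 0.038. PKM, the pyruvate kinase of most proliferating cells, had -0.30 and 0.10. Lactate dehydrogenase was lower in both of its subunits. LDHA, the subunit that favours lactate formation, had signals of 28271 under DMSO, 12893 under PHA665752, 18439 under sc siRNA and 13974 under MET siRNA, which is 1.89-fold and 1.36-fold lower, while the controls already differed by -0.36 on the log2 scale. A brighter LDHA probe carried background outlier marks on both control arrays and was left out; with those spots kept it gave -0.81 and -0.14. LDHB had log2 ratios of -0.44 and -0.16, and -0.47 and -0.30 by its second probe. Several of these enzymes, GAPDH, PGK1, LDHA, ENO1, TPI1 and PGAM1 among them, have processed pseudogenes of near-identical sequence, and binding of such transcripts to the probes was not tested.

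The regulatory kinases set the flow at phosphofructokinase and at pyruvate dehydrogenase. PFKFB3, which makes the activator of phosphofructokinase, went from 2181 with DMSO to 1035 with PHA665752, beside 1463 with sc siRNA and 1468 with MET siRNA, log2 ratios of -0.86 and -0.042. Its dimmer second probe gave -0.52 and -0.017. PFKFB4, a related enzyme, had -0.53 and 0.063. The pyruvate dehydrogenase kinases, which hold pyruvate back from the mitochondrion, were flatter, with 0.058 and -0.16 for PDK1 and -0.42 and -0.025 for PDK3. All 4 kinases lay between -0.16 and 0.063 with MET siRNA.

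The non-glycolytic HIF targets split where the enzymes leaned one way. Of 12 with a ratio in the inhibitor pair, 7 were lower and 5 higher, with a median log2 ratio of -0.12 and an interquartile range of 1.22, against 0.63 for the enzymes. The enzymes' median was thus 0.32 lower on the log2 scale than that of the HIF targets with the inhibitor. This gap rested on the middle of a short list: it was 0.24 where CA12, known only as a bound, was left out or where NDRG1 was let in. Enzymes minus HIF targets was -0.25 between the controls (sc siRNA over DMSO) and -0.17 with MET siRNA. A gap in the same direction was thus also present without either treatment of MET. Relative to the median of all genes the enzymes lay 0.52 lower and the HIF targets 0.20 lower.

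ANGPTL4, a secreted inhibitor of lipoprotein lipase that both HIF and PPAR factors induce, had the largest fall of all members. Its signals were 38469.6 under DMSO, 3904 under PHA665752, 46586 under sc siRNA and 24892 under MET siRNA (probe A_33_P3295358), so that both treated arrays lay below both controls. It was 8.49-fold lower with the inhibitor, the 59th largest fall among 14322 genes, and 1.93-fold lower with the siRNA, the 111th among 13647. BNIP3, a receptor for mitophagy, had signals of 76170.4, 25579, 66662 and 59784 in that order, 2.57-fold lower with PHA665752 and 1.15-fold lower with MET siRNA. CA9, a carbonic anhydrase at the cell surface that is widely read as a hypoxia marker, had 501, 171, 284 and 336. CA9 was lowest with PHA665752 (2.53-fold lower) and did not follow with MET siRNA (log2 ratio 0.19), and its controls differed by -0.56, the largest fall between controls among these targets.

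**Figure D2:**
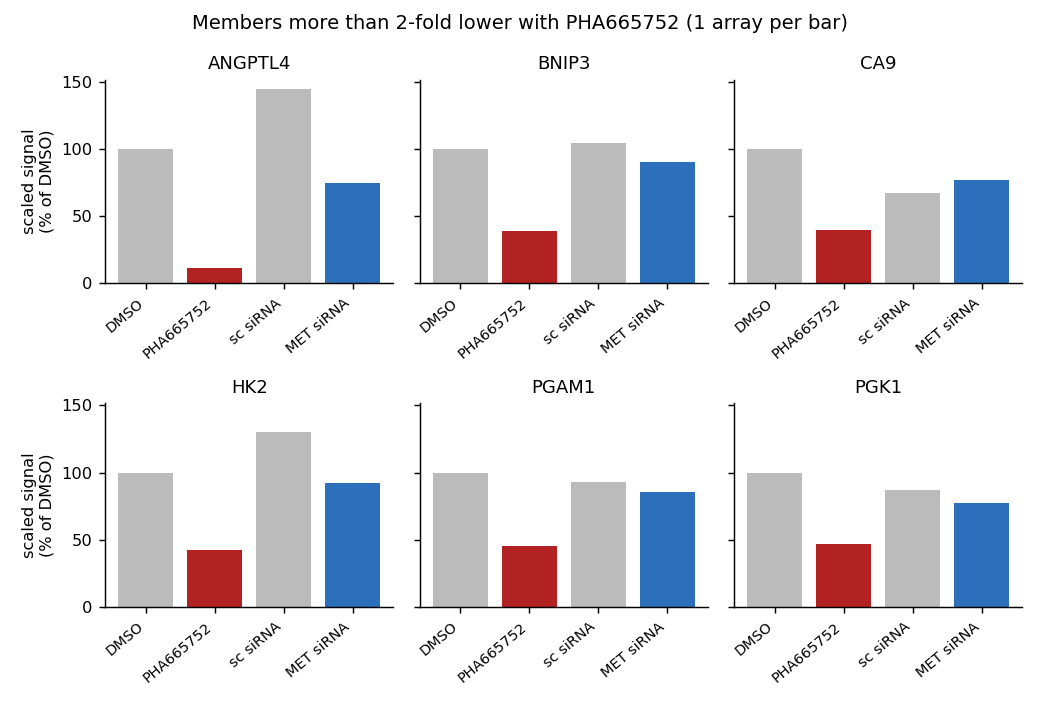
Scaled signal of the 6 members more than 2-fold lower with PHA665752 (vertical axis, percent of the DMSO array; 1 array per bar, no error). The PHA665752 bar is the lowest in each panel, and the MET siRNA bar is below both control bars in each panel except that of CA9.

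A further pair of targets, ADM and EGLN1, was more than 1.5-fold lower with the inhibitor and not with the siRNA. ADM, the vasodilator adrenomedullin, had signals of 16686 under DMSO, 8038 under PHA665752, 15809.7 under sc siRNA and 17466 under MET siRNA over 10 spots each, with log2 ratios of -0.84 and 0.097. EGLN1 (PHD2), the prolyl hydroxylase that marks HIF alpha for degradation, had log2 ratios of -0.75 and -0.21. Its paralogue EGLN3 had 0.26 and 0.24 at signals of 31.0 to 49.7, close to background, and its difference between the controls was -0.38. NDRG1, a stress-induced gene, had signals of 155016 with DMSO, 96997 with PHA665752 and 121651 with sc siRNA, a log2 ratio of -0.46 with the inhibitor.

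No other target was as much as 1.5-fold lower with PHA665752. VEGFA, the main inducer of vessel growth, had log2 ratios of 0.14 and 0.23, and 0.10 and 0.098 by its second probe. P4HA1, a collagen prolyl hydroxylase subunit, had -0.21 and -0.15, and ANKRD37, a small ankyrin-repeat protein, -0.037 and -0.11. KDM3A, a histone H3 lysine demethylase, was higher with PHA665752 at 485 against 368 with DMSO, 351 under sc siRNA and 392 under MET siRNA, or 0.61 on the log2 scale for the inhibitor. BHLHE40, a circadian repressor, had 0.26 and 0.098, less than its 0.44 between the controls. CA12, a second surface carbonic anhydrase, was not well above background on either control array (signals of 14.5 and 10.8) and was so at 18.3 with PHA665752 and 29.3 with MET siRNA, at least 1.46-fold and at least 2.61-fold higher; normexp background correction took the latter below 2-fold.

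**Figure D3:**
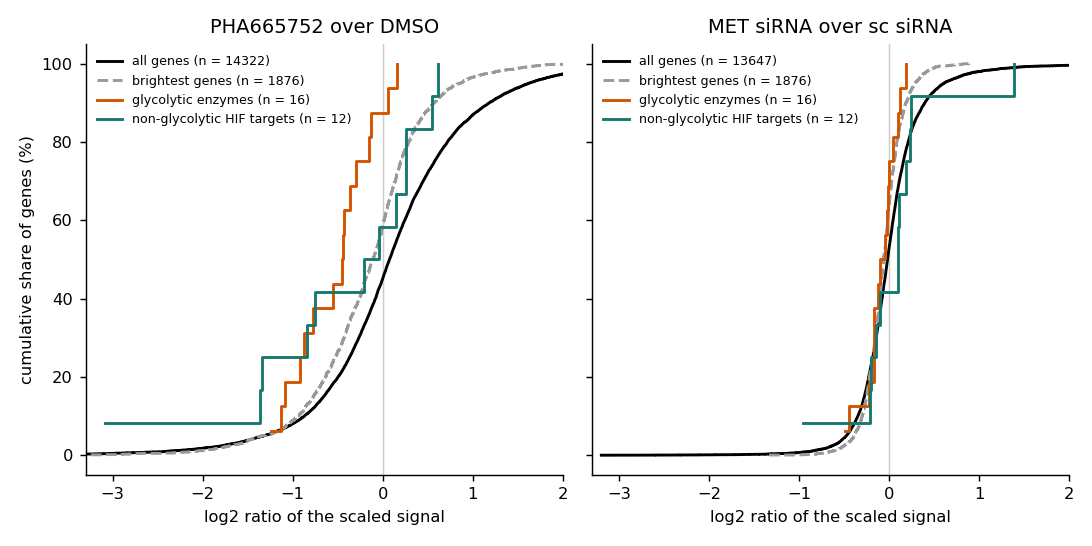
Cumulative share of genes (vertical axis, percent) by log2 ratio of the scaled signal (horizontal axis) for glycolytic enzymes, non-glycolytic HIF targets, all genes and the 1876 brightest genes, with the inhibitor (left) and the siRNA (right). With PHA665752 the enzymes form a steep curve left of all genes (median -0.45) and the HIF targets a long one (-3.09 to 0.61); with MET siRNA the curves lie close together around 0.

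The HIF alpha subunits changed little at the RNA level, which says nothing of the protein, the level at which HIF alpha is mainly controlled. HIF1A had signals of 5532 under DMSO, 4182 under PHA665752, 5938 under sc siRNA and 5473 under MET siRNA, log2 ratios of -0.19 and -0.16. Its second probe gave -0.024 and -0.11. EPAS1 had 0.16 and -0.088. For both genes the controls differed by more than either treatment did, by 0.35 for HIF1A and -0.32 for EPAS1.

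The inhibitor and siRNA pairs share no array, so their directions could be set side by side. Of 38 members, 21 were lower in both pairs and 7 higher in both, 28 in one direction (73.7%), beside 69.6% of 13440 genes with both ratios. Of those 13440 genes, 4622 were lower in both and 4728 higher in both. Of the 16 enzymes, 11 were lower in both and 1 higher in both. Of the 12 HIF targets, 5 were lower in both and 5 higher in both. The enzymes' median with MET siRNA was -0.073 and that of the HIF targets 0.098, each near the spot noise, and scaling to the median of probes well above background turned the latter to -0.20 while moving all genes by -0.30.

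**Figure D4:**
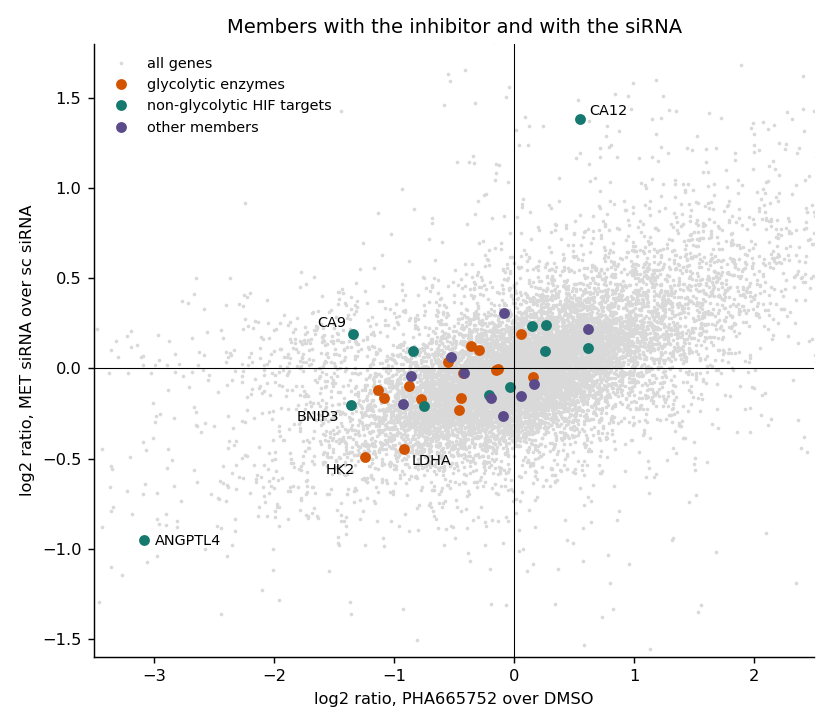
Log2 ratio with PHA665752 (horizontal axis) against that with MET siRNA (vertical axis) for all genes in grey and the members in colour; CA12 is a bound on both axes, and genes beyond the axis limits are not drawn. ANGPTL4 (-3.09, -0.95), HK2 (-1.24, -0.49) and LDHA (-0.92, -0.45) are the members lowest on the vertical axis, whereas CA9 (-1.34, 0.19) is low on the horizontal axis only.

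HIF binds a short core, A or G followed by CGTG, in the promoters and enhancers of its targets, and the sequences just upstream of the members were read for it. RefSeq windows (GRCh38.p14) were at hand for 36 of 40 members, and the 250 bases before the start of the first window listed for each gene were searched on both strands for ACGTG and GCGTG. The former also lies within the E-box CACGTG, which MYC and BHLHE40 bind, and a CACGTG is counted as an ACGTG match on each strand. Either core occurred in 25 of 36 members (69.4%) and in 43.1% of 27305 genes of the table, noncoding genes included. ACGTG occurred in 16 members (44.4%), against 18.7% of all, and GCGTG in 14 (38.9%), against 31.9%. Of the 16 members with ACGTG, 6 held it as a CACGTG. Of the promoters below, chosen after the values were seen, the first 4 belong to members more than 2-fold lower with PHA665752, and the last 2 to members whose ratios lay near 0, ANKRD37 and ALDOC. Capitals mark the cores on either strand (CACGT and CACGC are their reverse complements).
ANGPTL4: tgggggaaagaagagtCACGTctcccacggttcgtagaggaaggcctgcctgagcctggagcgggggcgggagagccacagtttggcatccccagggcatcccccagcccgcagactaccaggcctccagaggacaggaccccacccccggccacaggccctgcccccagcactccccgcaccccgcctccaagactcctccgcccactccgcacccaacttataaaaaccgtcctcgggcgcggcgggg
BNIP3: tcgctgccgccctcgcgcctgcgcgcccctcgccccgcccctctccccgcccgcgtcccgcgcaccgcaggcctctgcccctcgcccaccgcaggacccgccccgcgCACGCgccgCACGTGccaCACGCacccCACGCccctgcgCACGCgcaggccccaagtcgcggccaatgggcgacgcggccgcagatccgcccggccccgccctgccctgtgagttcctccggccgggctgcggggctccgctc
HK2: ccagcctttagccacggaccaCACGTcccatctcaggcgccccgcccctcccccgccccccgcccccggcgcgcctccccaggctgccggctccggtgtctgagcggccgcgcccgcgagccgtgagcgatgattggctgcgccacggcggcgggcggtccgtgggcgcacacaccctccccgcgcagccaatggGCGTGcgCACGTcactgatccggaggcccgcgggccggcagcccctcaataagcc
PGK1: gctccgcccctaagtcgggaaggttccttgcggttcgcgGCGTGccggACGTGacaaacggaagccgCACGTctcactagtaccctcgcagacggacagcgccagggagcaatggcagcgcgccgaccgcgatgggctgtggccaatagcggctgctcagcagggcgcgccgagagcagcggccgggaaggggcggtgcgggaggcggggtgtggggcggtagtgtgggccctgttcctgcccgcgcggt
ANKRD37: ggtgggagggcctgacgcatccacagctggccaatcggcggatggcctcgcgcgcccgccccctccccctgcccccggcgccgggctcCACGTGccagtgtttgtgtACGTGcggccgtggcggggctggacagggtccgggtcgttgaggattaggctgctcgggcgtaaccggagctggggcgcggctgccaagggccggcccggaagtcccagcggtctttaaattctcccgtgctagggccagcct
ALDOC: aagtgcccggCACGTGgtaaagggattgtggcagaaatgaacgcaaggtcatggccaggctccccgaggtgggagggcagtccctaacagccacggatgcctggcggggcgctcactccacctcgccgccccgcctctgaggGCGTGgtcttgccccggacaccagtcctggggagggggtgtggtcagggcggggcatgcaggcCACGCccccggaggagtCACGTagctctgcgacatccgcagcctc

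The cores were present on both sides of this contrast. ANGPTL4 (chr19:8363905-8364154, plus strand) held 1 match, BNIP3 (chr10:131981924-131982173, minus strand) 2 of ACGTG and 4 of GCGTG, HK2 (chr2:74833877-74834126, plus strand) 2 and 1, and PGK1 (chrX:78103998-78104247, plus strand) 2 and 1. ANKRD37 (chr4:185396591-185396840, plus strand) held 3 of ACGTG, and ALDOC (chr17:28576896-28577145, minus strand) 3 and 2, although neither was lower by more than the spot noise with PHA665752. CA9 held 1 ACGTG, and PGAM1 held neither core in this window. Over the 35 members with a window and a ratio, the 24 with either core had a median inhibitor ratio of -0.42 on the log2 scale and the 11 with neither had -0.44. The 15 with ACGTG had a median of -0.55 with 5 past 2-fold lower, and the 20 without it -0.36 with 1. Over all genes 8.04% were past 2-fold lower, but all genes were not split by ACGTG. Whether ACGTG goes with a lower ratio was thus not tested. A match is a stretch of letters and not a measured binding site, and the windows leave out enhancers and other start sites.

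Other genes of the pathways, listed by role, were read in the same way. Of 33 further isozymes, carriers and genes of pyruvate entry, 23 had a ratio with PHA665752, of which 5 were past 2-fold higher (13.1% of all genes) and 1 lower (8.04%), with a median of -0.14. With MET siRNA 3 of 21 were higher (2.04% of all genes) and 0 lower (0.696%). PDK4, which blocks pyruvate dehydrogenase in fasting, had signals of 79.1 under DMSO, 252 under PHA665752, 55.4 under sc siRNA and 184 under MET siRNA, log2 ratios of 1.88 and 1.68. PDK2, the widely expressed kinase of the same step, had 1021, 2398, 652 and 1368, or 1.45 and 1.02. In both genes each treated array lay above both controls, unlike the members PDK1 and PDK3. The glucose carrier SLC2A12 was higher by 1.52 and 1.29 on the log2 scale at low signals (14.4 to 50.2), and the muscle enolase ENO3 by 1.44 and 0.34.

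Of 15 components of the machinery that controls HIF, 14 had ratios, with 1 past 2-fold higher with PHA665752 and 0 lower, where 13.1% and 8.04% of all genes were. With MET siRNA 0 of the 14 were past 2-fold, a count near the shares of all genes (2.04% higher and 0.696% lower). The 1 higher under PHA665752 was OS9, a lectin of endoplasmic reticulum quality control that has been linked to HIF hydroxylation, with 1.02 and 0.17. Of 35 further hypoxia targets, 30 had ratios, 5 past 2-fold lower (8.04% of all genes) and 2 higher (13.1%) with PHA665752, and their median with it was 0.20. With MET siRNA 0 of the 30 were past 2-fold, a count near the shares of all genes (2.04% higher and 0.696% lower). Those with the largest ratios were HMOX1, a heme oxygenase, 2.83-fold higher, the transferrin receptor TFRC, 2.46-fold lower, the ephrin EFNA1, 2.21-fold higher, and INSIG2, a brake on sterol synthesis, 2.21-fold lower. HMOX1 was 4.03-fold higher with sc siRNA than with DMSO, more than with PHA665752. EFNA1 was also higher with sc siRNA than with DMSO, 1.69-fold, at low signals (52.1 to 110). These further targets, like the non-glycolytic members, thus included genes on both sides of 0.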

How the data were processed

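Gene expression was measured in 4 samples of Hs746T cells, 1 Agilent array per condition, on 1 slide. The authors deposited Feature Extraction output (version 11.5.1.1 per the file headers), in which the processed intensity of each spot is background-subtracted and not normalized between arrays. The members and gene lists were chosen with earlier results of these data known.

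Control spots were dropped, as were spots with a feature or background outlier mark (1.69% to 5.58% per array). The spots of a probe were averaged as log2 intensity, from which the array's 75th percentile was subtracted. Among 34127 probes, 25771 were named by RefSeq accession from a table of GRCh38.p14. The probe with the highest mean scaled signal and a value on every array stood for its gene. A probe well above background on 1 array of a pair gave a bound, for which the dim array took either the lowest signal well above background or the probe's signal there, whichever was higher; a probe dim on both gave no ratio. Every member is named, together with the genes of each context list past 2-fold with either treatment, at most 4 per list; EPCAM, CDH1, the keratins and the other cell markers serve as a check of the cell type.

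The pairs compared were PHA665752 over DMSO, MET siRNA over sc siRNA and sc siRNA over DMSO, without tests, for want of replicates. The 10 alternatives run included other percentiles and filters, quantile normalization, normexp with an offset of 50 and the value table of the series, which holds the same processed intensity for the 33128 probes spotted once. The ratio rules were tested on simulated data. Python 3.11.15, numpy 2.4.6, pandas 2.3.3, matplotlib 3.10.9, R 4.3.3 and limma 3.58.1 were used.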

Additional observations from a re-analysis of the deposited data

How the results depend on the processing

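With PHA665752 the enzymes' median log2 ratio (-0.45) lay between -0.70 and -0.41 over the 10 alternatives and that of the HIF targets (-0.12) between -0.37 and -0.058, both below 0 throughout. The 50th percentile, which moved the median of all genes by -0.25, gave -0.70 and -0.37, and scaling to the median of probes well above background gave -0.54 and -0.22. The HIF targets' median was -0.21 when both arrays had to be well above background, with the median over probes and with the brightest probe of the pair, and -0.22 with background outliers kept. Enzymes minus HIF targets (-0.32) was -0.24 under these 4. The count of members past 2-fold lower (6) was 12 with the 50th percentile and 6 to 8 otherwise.

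With MET siRNA, scaling to the median of probes well above background gave -0.37 for the enzymes (-0.073), -0.20 for the HIF targets (0.098) and 1 member past 2-fold lower, ANGPTL4. The 1 member higher, CA12, was lost (0) with normexp and when both arrays had to be well above background. Of 1128 recomputed ratios of single members, 912 moved by no more than the spot noise, 216 by more, and 0 of those past 2-fold turned sign. No replicate could be left out. No paired analysis was possible because each condition had 1 array.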

Other observations

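The pathways that branch from and follow glycolysis were also read. Over the 7 genes of the pentose phosphate pathway, which makes NADPH and ribose, the median log2 ratio was 0.30 with the inhibitor and 0.13 with the siRNA. RPIA, the ribose 5-phosphate isomerase of this pathway, was at -1.01 with the inhibitor and -0.37 with the siRNA, beside 0.084 between the controls.

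Of 17 genes of the TCA cycle, 14 had a ratio, and 0 were past 2-fold with PHA665752, where 13.1% of all genes were higher and 8.04% lower. None of the 14 was past 2-fold with MET siRNA either, a count near the shares of all genes (2.04% and 0.696%). Their median log2 ratio was -0.074 for the inhibitor and -0.14 for the siRNA. The lowest with PHA665752 was IDH3A, a subunit of isocitrate dehydrogenase, at -0.75.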
